A study of Mus musculus with 15 samples.

Results

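Gene expression on the 3 arrays labelled iNOS knockout (title code GFK) was compared with that on the 3 wild-type arrays of the same title prefix (code GFW), 6 of the 15 arrays of the study. These 6 arrays were identified by their title codes. Both groups held spleen cells that were negative for CD4, CD8, Ly6G, B220 and Ter119 and positive for CD11b and CD34, sorted without culture from G-CSF-treated mice. G-CSF is the growth factor that drives progenitors and myeloid cells from the marrow into blood and spleen. The GFW mice were C57Bl/6, and the GFK mice were labelled iNOS knockouts, with the strain also given as C57Bl/6. The labels give neither the mice's age nor the allele, the dose of G-CSF or the number of mice behind an array. The study's 3 other groups were a further wild-type set of the same cells (code RB), GFW-like cells kept for 3 days with SCF and Flt3 ligand (GFE), and cultured marrow suppressor cells (MDSC). The RB arrays were left out of the main fit. The GFE and MDSC arrays served for the estimate of the spread and counted in the filter that set which genes were tested. All 15 arrays counted in the choice of a gene's probe set.

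Inducible nitric oxide synthase (iNOS), the product of Nos2, makes nitric oxide from arginine and is switched on in myeloid cells by interferon-gamma, microbial products and TNF. Nitric oxide made by myeloid cells kills microbes and can restrain T cell proliferation. Interferon-gamma acts through the kinases Jak1 and Jak2, while TNF and microbial products act through the NF-kB family, and many inflammatory genes answer to both.

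Each array gave the log2 signal of 41345 probe sets, made by the authors with RMA, so a difference of 1 is a 2-fold change. The array medians lay between 5.62 and 5.72 log2. Across all probe sets the correlation of array pairs was 0.9803 for GFK1 and GFK2 (arrays are numbered by replicate) and 0.9727 to 0.974 within the GFW group. Between GFK1 or GFK2 and the GFW arrays it was 0.9716 to 0.9741, much as within the GFW group. Pairs that held GFK3, the array that stood furthest from the others, gave 0.964 to 0.9719. Of 22180 genes with a probe set of their own, 15854 were tested and 285 (1.8%) passed limma's moderated test at a Benjamini-Hochberg adjusted p under 0.05, the threshold for every call below. Of these, 227 were higher (1.43%) and 58 lower (0.366%) on the GFK arrays, and 57 of the higher but 3 of the lower genes differed by at least 2-fold. All 227 higher and all 58 lower genes had no overlap between the groups, so a separation by array adds no support to a call. The median difference over all genes tested was -0.011. The number of arrays limits the precision. The spread behind the p-values was pooled over 12 arrays, the cultured GFE and MDSC cells included, and need not be that of the 6 arrays compared. With the spread of those 6 alone, 70 genes were called higher and 1 lower. Nothing says that the replicates came from separate mice, so the p-values describe how samples scatter, and that scatter can be technical.

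The sorted population carried its positive markers. Itgam, which encodes CD11b, gave 11.67, 11.74 and 11.74 on the GFK and 11.71, 11.62 and 11.67 on the GFW arrays, and Cd34 gave 7.46, 6.97 and 7.37 against 7.39, 7.18 and 6.99. The groups overlapped for both genes. Ly6g, whose protein the sort removed, read 12.03 to 12.12 on the GFK and 12.15 to 12.21 on the GFW arrays, well above the 40th percentile that served as the limit of detection (5.05 to 5.25). Of 18 neutrophil genes 0 were called (1 at an unadjusted p under 0.05, median 0.02), and of 11 genes of classical monocytes 0 (3 unadjusted, median 0.05). Xist lay between 10.26 and 10.46 on all 6 arrays, and the Y-linked Kdm5d, Uty and Eif2s3y lay below the limit of detection on all 6.

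Nos2 itself was not lower on the arrays labelled knockout. It read 8.84, 8.91 and 8.92 log2 there, and 8.09, 8.32 and 8.43 on the GFW arrays. All 3 GFK arrays lay above all 3 GFW arrays, by 0.61 on average (1.53-fold, SE 0.10, 95% confidence interval 0.39 to 0.83, adjusted p = 0.00672). The call held with each of the 6 arrays left out in turn (adjusted p 0.00873 to 0.0245). It was lost when the spread was taken from the 6 arrays alone (0.0975) and in a test against a 1.5-fold difference (1). The part of the transcript that the probe set reads is not given in the sources used here. The signal therefore neither checks the label nor tells an intact Nos2 transcript from one shortened by a targeted allele, and every direction below is that of the arrays labelled knockout.

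The genes beside Nos2 on chromosome 11 were not called. Of the 20 tested genes before it and the 20 after it in RefSeq order, 0 were called by limma and 2 had an unadjusted p under 0.05, as did 2115 of all genes tested. Their median was -0.06, and their differences ran from -0.29 for Ccnq to 0.30 for Adap2. The nearest on either side, Lyrm9 and Lgals9, differed by 0.09 and -0.28. On the whole of chromosome 11, 18 of 1323 genes tested were called higher and 5 lower.

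**Figure D1:**
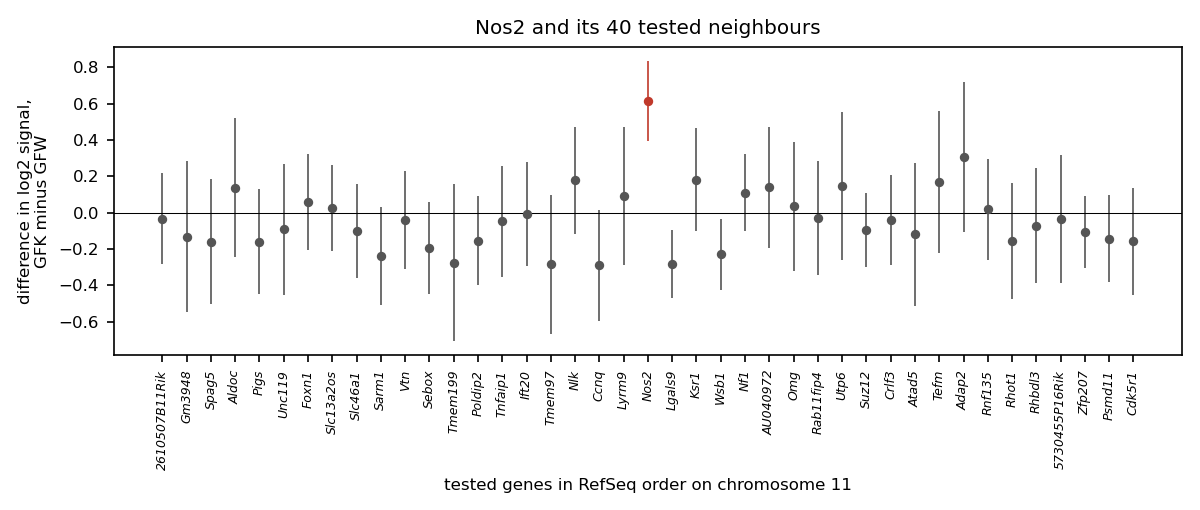
Difference in log2 signal (GFK minus GFW, points, with 95% confidence intervals from limma) of Nos2, in red, and of the 20 tested genes on each side of it, in RefSeq order on chromosome 11. Nos2 stands at 0.61 and the neighbours between -0.29 and 0.30.

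The highest median among 29 gene lists was that of the interferon-gamma-induced GTPases, the guanylate-binding proteins (Gbp) and immunity-related GTPases (Irg) that attack the vacuoles of intracellular pathogens. All 14 members tested had a positive difference (median 0.92), and 9 were called higher and 0 lower, where 1.43% of all genes tested were called higher. With the spread taken from the 6 arrays alone 5 members were called higher, and in a test against a 1.5-fold difference 2. Over the 18 members with a probe set the mean signal was 7.49, 7.63 and 7.62 on the GFK arrays and 6.73, 6.65 and 6.67 on the GFW arrays. Of 24 genes listed, 6 had no probe set of their own, and 4 (Gbp4, Gbp6, Gbp11 and F830016B08Rik) lay too low to be tested. Of the markers of splenic macrophages 7 of 20, and of plasma cells 6 of 13, were also called higher on the GFK arrays, and their part in this and the following results was not tested.

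Gbp5, which promotes inflammasome assembly, read 8.75, 8.90 and 8.86 on the GFK and 6.86, 6.54 and 6.50 on the GFW arrays. The groups stood far apart, with a 4.61-fold difference (2.2 log2, SE 0.15, adjusted p = 4.75e-06). Gm12250, listed by RefSeq with the synonym Irgb10, read 9.12, 8.87 and 9.68 against 6.99, 7.18 and 6.62. This was a 4.90-fold difference (2.29 log2, SE 0.19, adjusted p = 2.09e-05), again with no overlap. Gbp8 was even on the GFK arrays, at 7.83, 7.78 and 8.03, and uneven on the GFW arrays, at 6.88, 4.66 and 5.35. Its difference of 2.25 had a larger error (SE 0.38, adjusted p = 0.00682), and its GFW2 value lay below the limit of detection. The Gbp8 call was lost with the spread taken from the 6 arrays alone (adjusted p = 0.107).

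The other called members differed by less. Igtp (also known as Irgm3) rose from 9.52, 9.78 and 9.46 on the GFW arrays to 10.75, 10.81 and 10.71 on the GFK arrays, by 2.24-fold (SE 0.15 log2, adjusted p = 0.00152). Its regulatory relatives Irgm1 and Irgm2 were higher by 1.07 (adjusted p = 0.000124) and 0.70 (0.00313), and Gbp3 by 1.06 (0.00111). Iigp1 read 5.97, 6.19 and 7.08 against 4.78, 4.76 and 5.25, and since its GFW signal lay near the limit of detection it was at least 2.26-fold higher (adjusted p = 0.00746). Such a bound sets the bright group against the limit of detection of each dim array in place of the dim signal. The Iigp1 call was lost with the spread taken from the 6 arrays alone (adjusted p = 0.0774). Gbp7 was called at a difference of 0.78 (adjusted p = 0.0489), and this call was lost without GFK1, GFK3, GFW1 or GFW3 (adjusted p up to 0.155). Members that did not pass were Gbp9 at 0.68 (adjusted p = 0.0597), Gbp10 at 0.55, Gm4951 at 0.51, Gbp2b at 0.24 and 9930111J21Rik2 at 0.04.

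**Figure D2:**
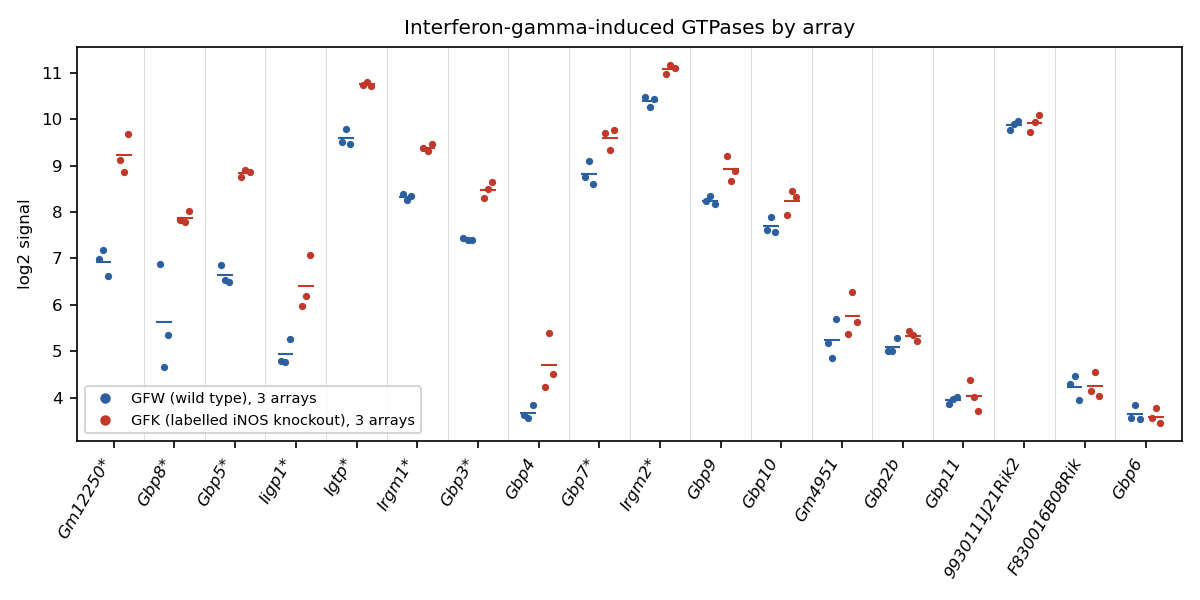
Log2 signal of the 18 interferon-gamma-induced GTPases with a probe set, 1 point per array, bars at group means, GFW in blue and GFK in red; an asterisk marks a call. Gbp5 lies between 8.75 and 8.90 on the GFK arrays and at most at 6.86 on the GFW arrays, while 9930111J21Rik2 overlaps.

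The 250 bases before the RefSeq start were read for the GTPases called higher, because interferon-gamma is known to act on such promoters through 2 short motifs. These were the gamma-activated site TTCNNNGAA and the interferon-stimulated element (GAAA and GAAA with 2 bases of any kind between them), each searched on both strands. RefSeq's promoter table for GRCm38.p6 held 7 of the 9 GTPases, with 8 promoters. The gamma-activated site was found in 5 of these 8 (62.5%) and the interferon-stimulated element in 7 (87.5%), beside 7.02% and 2.98% of all 32851 promoters of that length. Both motifs stood together in 1 promoter of Gbp5, Gbp7, Gm12250, Igtp and Irgm2, and in 109 of all promoters (0.332%). These 5 are shown 5′ to 3′ on the strand of the gene, the last base lying just before the start, with the letters of either motif in capitals.
Gbp5 (chr3:142496684-142496933, + strand): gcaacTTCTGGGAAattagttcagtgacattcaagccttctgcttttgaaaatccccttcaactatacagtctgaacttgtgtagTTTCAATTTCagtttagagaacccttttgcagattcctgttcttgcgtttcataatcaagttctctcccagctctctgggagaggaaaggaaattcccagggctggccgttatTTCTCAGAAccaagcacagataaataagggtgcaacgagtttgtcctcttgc
Gbp7 (chr3:142530086-142530335, + strand): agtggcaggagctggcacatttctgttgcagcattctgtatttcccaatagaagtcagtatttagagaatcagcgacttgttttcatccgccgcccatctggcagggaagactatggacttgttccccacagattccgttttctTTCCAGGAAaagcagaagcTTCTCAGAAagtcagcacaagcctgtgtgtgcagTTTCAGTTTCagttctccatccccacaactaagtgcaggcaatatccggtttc
Gm12250 (chr11:58183593-58183842, + strand): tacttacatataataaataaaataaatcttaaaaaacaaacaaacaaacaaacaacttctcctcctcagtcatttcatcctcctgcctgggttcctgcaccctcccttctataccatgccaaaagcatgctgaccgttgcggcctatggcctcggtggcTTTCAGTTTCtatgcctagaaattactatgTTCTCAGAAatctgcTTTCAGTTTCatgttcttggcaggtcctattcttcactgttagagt
Igtp (chr11:58199306-58199555, + strand): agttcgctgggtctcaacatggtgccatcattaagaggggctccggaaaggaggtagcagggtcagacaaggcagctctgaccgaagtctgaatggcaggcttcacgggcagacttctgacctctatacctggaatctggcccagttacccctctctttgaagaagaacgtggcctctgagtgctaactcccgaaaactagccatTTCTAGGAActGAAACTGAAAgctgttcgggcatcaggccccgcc
Irgm2 (chr11:58214727-58214976, + strand): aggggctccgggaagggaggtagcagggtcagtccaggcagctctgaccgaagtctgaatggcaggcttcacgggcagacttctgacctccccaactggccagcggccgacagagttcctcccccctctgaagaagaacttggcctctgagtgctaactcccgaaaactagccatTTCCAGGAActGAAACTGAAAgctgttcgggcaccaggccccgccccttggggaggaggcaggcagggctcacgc

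In Gbp5 the gamma-activated sites began 245 and 52 bases before the start and the interferon-stimulated element 165 before it. In Gbp7 the sites began at 106 and 87 and the element at 53, and in Gm12250 the site began at 61 and the elements at 91 and 46. Igtp and Irgm2, both on chromosome 11, had the site at 45 and 75 and the element at 34 and 64. Gbp3 and Irgm1 held a pair of overlapping elements and no gamma-activated site. A match is a string of letters, and no binding was measured. The list was drawn up as genes induced by interferon-gamma, so its share of such motifs says nothing about GFK against GFW. Promoters of the members not called were not read. Those of Igtp and Irgm2 share long stretches of sequence, so their matches are not separate cases.

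The rest of the interferon-gamma pathway was divided. Of 25 further members tested, 9 were called higher and 0 lower, with a median of 0.24. Interferon-gamma, its receptor chains and the receptor's kinases were not among those called. Ifng read 5.10 to 5.49 on the GFK arrays and 5.10 to 5.49 on the GFW arrays (difference -0.08), at the edge of detection. The limit was 5.17 to 5.24 on the GFK and 5.22 to 5.25 on the GFW arrays, above the lowest reading of each group. Little can therefore be said of a difference in Ifng. Ifngr1 differed by -0.10, Ifngr2 by -0.05, Jak1 by -0.05 and Jak2 by 0.21.

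Cxcl9, a chemokine that draws activated T cells through CXCR3, read 9.47, 9.78 and 9.85 on the GFK and 8.01, 8.18 and 7.81 on the GFW arrays. All GFK values were above all GFW values, by 3.25-fold (1.70 log2, SE 0.18, adjusted p = 0.000288). Cxcl10, a ligand of the same receptor, read 9.10, 9.16 and 9.27 against 7.46, 7.81 and 7.72. It too was separated by array, at 2.85-fold (1.51 log2, SE 0.14, adjusted p = 9.71e-05). The third ligand, Cxcl11, differed by 0.42 and was not called (adjusted p = 0.24). Cd274, which encodes the T cell inhibitory ligand PD-L1, read 9.73, 9.83 and 9.98 against 8.38, 8.32 and 8.29, a 2.86-fold difference (SE 0.11 log2, adjusted p = 8.13e-06). It was the 1 member called among 20 co-stimulatory and checkpoint ligands (median -0.06). The second PD-1 ligand, Pdcd1lg2, differed by 0.18 (adjusted p = 0.71), and the co-stimulatory Cd80 and Cd86 by 0.28 and 0.40 (0.461 and 0.468).

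Acod1, which makes the antimicrobial metabolite itaconate, read 11.97, 11.94 and 12.07 against 10.89, 10.82 and 10.92 (1.11 higher, adjusted p = 9.71e-05). Irf1, a transcription factor induced early by interferon-gamma, read 9.91, 9.95 and 9.96 against 9.23, 9.13 and 9.10 (0.79 higher, adjusted p = 0.00346). Neither gene overlapped between the groups. Nlrc5, the transactivator of MHC class I genes, was 1.08 higher (adjusted p = 0.00244), the IL-18 inhibitor Il18bp 0.89 (0.00446), the adhesion molecule Icam1 0.81 (0.0272) and the signalling inhibitor Socs1 0.77 (0.014). Without 1 array the last 2 calls could be lost, that of Icam1 without GFK3, GFW2 or GFW3 (up to 0.0947) and that of Socs1 without GFK1 or GFW3 (up to 0.0581).

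Of 9 promoters of these other interferon-gamma members called higher, 2 had the gamma-activated site and 2 the element. Irf1, Cxcl10 and Cxcl9, picked among those with a match, are shown for comparison with the GTPases. Here matches to a 9-base form of the NF-kB motif, GGGANNTCC, which includes the narrower GGGANTTCC, are also in capitals. Longer forms of the motif were not searched, so a promoter without a match may still hold one. The broad form was found in 3.59% and the narrow form in 1.43% of all promoters. Among promoters of genes called higher, the broad form was in 2 of the 9 above and 1 of 6 of the NF-kB list. It was in 0 of 5 of the cytokines and 0 of 4 of the chemokine list.
Irf1 (chr11:53769764-53770013, + strand): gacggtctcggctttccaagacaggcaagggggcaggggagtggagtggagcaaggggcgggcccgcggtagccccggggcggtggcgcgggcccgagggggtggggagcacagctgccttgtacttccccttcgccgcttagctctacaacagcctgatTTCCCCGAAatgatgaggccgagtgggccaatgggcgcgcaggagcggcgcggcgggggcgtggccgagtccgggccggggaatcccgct
Cxcl10 (chr5:92348890-92349139, - strand): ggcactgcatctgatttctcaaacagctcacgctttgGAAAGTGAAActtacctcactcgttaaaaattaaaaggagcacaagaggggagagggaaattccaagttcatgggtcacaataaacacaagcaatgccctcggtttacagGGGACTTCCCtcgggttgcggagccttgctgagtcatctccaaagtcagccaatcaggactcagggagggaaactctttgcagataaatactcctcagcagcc
Cxcl9 (chr5:92328080-92328329, - strand): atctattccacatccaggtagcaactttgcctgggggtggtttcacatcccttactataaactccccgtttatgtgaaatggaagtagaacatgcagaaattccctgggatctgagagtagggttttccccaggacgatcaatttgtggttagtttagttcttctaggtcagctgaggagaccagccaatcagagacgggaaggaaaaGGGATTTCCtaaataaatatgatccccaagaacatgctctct

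Irf1 had a gamma-activated site beginning 90 bases before this start, and the promoter of its other listed start had none of the motifs. Cxcl10 had an interferon-stimulated element beginning at 213 and overlapping NF-kB matches at 103 and 102, which are the same stretch read on opposite strands. Cxcl9 had 1 NF-kB match, at 42. Promoters of Tnf, Acod1 and Cd274 held none of these letters in this window.

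Antigen presentation genes were called in part. Among 17 genes of MHC class I processing, 2 were called higher and 0 lower, and 15 had a positive difference (median 0.24). These 2 were the immunoproteasome subunit Psmb10 (9.75, 9.71 and 9.75 against 8.90, 9.07 and 9.0, adjusted p = 0.00283) and Tapbpl, a peptide editor of class I molecules, which was higher by 0.55 (0.0295). The Tapbpl call was lost without GFK3, GFW1 or GFW3 (up to 0.106). The other immunoproteasome subunits Psmb8 and Psmb9 differed by 0.13 and 0.22 and the peptide transporter Tap1 by 0.30, none of them called. Of 10 genes of MHC class II presentation 0 were called (4 at an unadjusted p under 0.05), and the median was -0.13. H2-Ab1, the class II beta chain, read 11.13, 11.12 and 11.20 on the GFK arrays, all below the GFW values of 11.53, 11.66 and 11.49, and just missed the threshold (difference -0.41, adjusted p = 0.0511).

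The type I interferon list, whose genes answer to interferon-alpha and -beta, did not move together. Of 26 members 2 were called higher and 2 lower, and the median was -0.02. Zbp1, a sensor of nucleic acids, was higher by 0.67 (adjusted p = 0.00552), and Stat2, a transducer of type I interferon signals, by 0.53 (0.0289). Ifit1, an antiviral RNA-binding protein, was lower, at 8.80, 8.80 and 8.84 against 9.43, 9.42 and 9.42 (difference -0.61, adjusted p = 0.0102). Tlr3, the receptor for double-stranded RNA, was lower by 2.03-fold (difference -1.02, adjusted p = 0.0129). The calls of Stat2 (without GFK1, GFK3, GFW1 or GFW2, up to 0.0947) and Tlr3 (without GFK1, GFW2 or GFW3, up to 0.057) depended on single arrays. Widely used members such as Isg15 (0.07), Rsad2 (0.07), Oasl2 (0.00) and Irf7 (-0.16) were not called.

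Some inflammatory mediators were called and others were not. Tnf read 10.29, 10.32 and 10.54 on the GFK and 8.57, 8.28 and 8.68 on the GFW arrays. The groups were separated by 3.67-fold (1.88 log2, SE 0.13, adjusted p = 4.75e-06). It was 1 of 4 cytokines called higher among 26 tested, with 0 lower and a median of 0.05. Il1a, at 5.74, 6.37 and 6.64 against a GFW signal near the limit of detection (4.87, 5.15 and 4.65), was at least 2.01-fold higher (adjusted p = 0.00476). The anti-inflammatory members were also called: the IL-1 receptor antagonist Il1rn was higher by 0.72 (0.00443), and Il10 by 0.92 (0.0207), the latter lost without GFK2 or any 1 GFW array (up to 0.0641).

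Other members of the same list did not pass. Il1b read 12.90, 12.92 and 12.85 against 12.92, 12.97 and 12.96, and the groups overlapped (difference -0.06, 95% confidence interval -0.42 to 0.30). Il6 was near the limit of detection on all 6 arrays (4.02 to 4.17). Csf1 differed by 0.52 (adjusted p = 0.062) and Tnfsf14 by -0.54 (0.15), neither of them called.

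Of 28 chemokines and receptors, 3 were called higher and 0 lower (median 0.07). The chemokines Cxcl9 and Cxcl10, called higher above, were counted with the interferon-gamma pathway and not in this list. Ccl3, a chemokine ligand of CCR1, read 11.46, 11.46 and 11.70 against 10.55, 10.24 and 10.37, a 2.22-fold difference (SE 0.11 log2, adjusted p = 7.32e-05). The atypical receptor Ccrl2 read 10.05, 10.08 and 10.13 against 9.16, 9.21 and 9.18 (0.90 higher, adjusted p = 0.00464). Both were separated by array. Ccl4 was higher by 0.55 (0.0312), a call lost without GFK1, GFK2, GFW1 or GFW2 (up to 0.0986). Neutrophil attractants were not called, with differences of 1.07 for Cxcl3 (adjusted p = 0.12), 0.46 for Cxcl2 (0.239) and 0.44 for Cxcl1 (0.39). Ccr2, the receptor that guides monocytes out of marrow, lay at 7.62, 7.19 and 7.67 on the GFK arrays, below all GFW values of 8.01, 8.14 and 8.40, and was not called (difference -0.69, adjusted p = 0.0788).

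Most of the NF-kB list had small positive differences. Of 25 subunits, inhibitors and targets 23 had a positive difference, 17 had all GFK arrays above all GFW arrays (7.94% of all genes tested did, and 7.8% the reverse), and 5 were called higher and 0 lower. Its median was 0.25, and 2 members were called higher with the spread taken from the 6 arrays alone. Ikbke, the inducible kinase IKK-epsilon, read 8.24, 8.38 and 8.42 against 6.90, 6.98 and 6.88. It differed by 2.68-fold (1.42 log2, SE 0.10, adjusted p = 4.75e-06). The other 4 are negative regulators or protective targets of the pathway: Tnfaip3, a ubiquitin editor that ends the signal, was higher by 0.95 (0.00218), the inhibitors Nfkbie and Nfkbia by 0.87 (0.00854) and 0.54 (0.00827), and the mitochondrial superoxide dismutase Sod2 by 0.75 (0.00313). Of the subunits of NF-kB, Nfkb1 was not analysed here, and the other 4 were not called, with Rela at -0.01, Rel at 0.26, Relb at 0.21 and Nfkb2 at 0.25. Of 18 Toll-like receptors and adaptors, Tlr7 was called higher (0.57, adjusted p = 0.0114) and Tlr3 lower, and the median was -0.05.

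**Figure D3:**
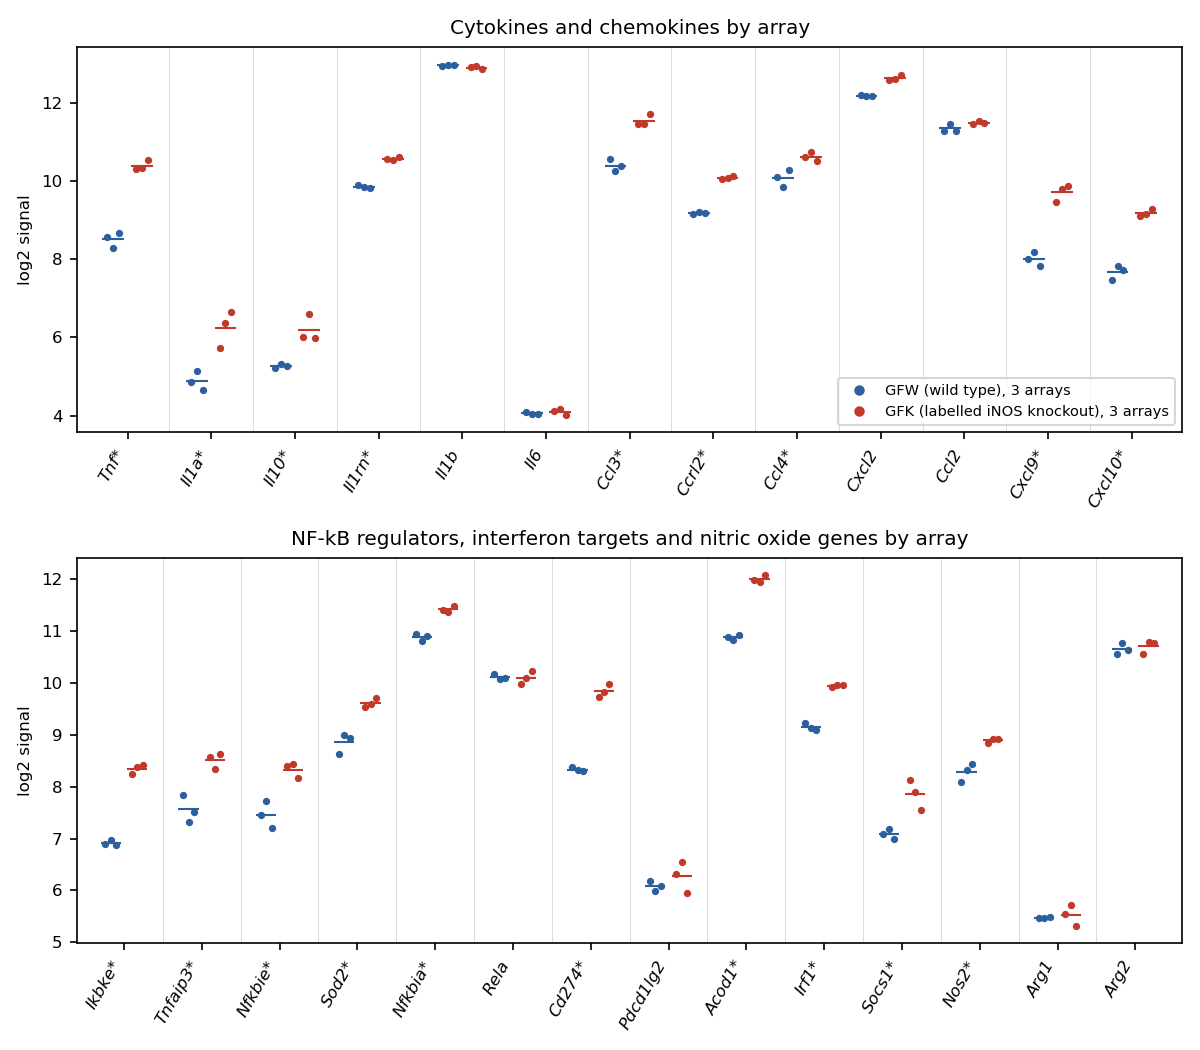
Log2 signal of cytokines and chemokines (upper panel) and of NF-kB regulators, interferon targets and nitric oxide genes (lower panel), 1 point per array, bars at group means, GFW in blue and GFK in red; an asterisk marks a call. Tnf, Cxcl9 and Cd274 stand apart by array, and Il1b and Il6 overlap.

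Of 21 genes tested that handle arginine, nitric oxide and its cofactor, Nos2 was the member called, and the median was 0.06. Without GFW2 the arginine transporter Slc7a1 passed as well (difference 0.65, adjusted p = 0.0395). Arg2, an arginase that competes for the same substrate, read 10.56, 10.79 and 10.77 against 10.56, 10.77 and 10.63, and Arg1 read 5.32 to 5.71 against 5.46 to 5.49. The other nitric oxide synthases, Nos1 and Nos3, differed by -0.04 and 0.09. Gch1, which starts the synthesis of the cofactor tetrahydrobiopterin, differed by 0.38 (adjusted p = 0.23).

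Genes of oxidant handling were called in part. Cybb, the catalytic subunit of the phagocyte NADPH oxidase, read 10.42, 10.45 and 10.70 against 9.74, 9.88 and 9.90 (0.68 higher, adjusted p = 0.00346), and was 1 of 6 subunits tested to be called. Slc7a11, which imports cystine for glutathione, read 10.71, 10.61 and 10.56 against 9.55, 8.91 and 9.50. It was higher by 2.47-fold (1.31 log2, SE 0.15, adjusted p = 0.000432), and its second probe set by 2.30 log2. With the thioredoxin reductase Txnrd1 (0.81, adjusted p = 0.00708), Sod2 and the haem oxygenase Hmox1 (0.54, 0.0292) it made 4 higher and 0 lower among 17 genes of oxidant defence, whose median was 0.07. The Hmox1 call was lost without GFK1 or GFK3 or any 1 GFW array (up to 0.0947). Nqo1 differed by 0.78 and was not called (adjusted p = 0.10).

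Fabp4, a fatty acid carrier of fat cells and macrophages, had the largest difference of the 15854 genes. It read 7.15, 7.56 and 8.33 on the GFK arrays and 4.09, 4.44 and 3.77, near the limit of detection, on the GFW arrays. It was at least 5.44-fold higher (adjusted p = 4.75e-06). Of 15 genes of fatty acid binding and metabolism 3 were called higher and 0 lower, with a median of 0.41. The others were Cpt1a, which admits fatty acids to mitochondria (0.84, adjusted p = 0.00446), and the lipid droplet protein Plin2, at 10.33, 10.40 and 10.33 against 9.40, 9.69 and 9.53 (0.81, 0.000592). The fatty acid receptor Cd36 (0.76, adjusted p = 0.053) and the pyruvate carrier subunit Mpc1 (-0.70, 0.06) did not pass, and the related carrier Fabp5 differed by -0.14.

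Among the other genes with the largest rise, Csta2 belongs to the stefin A inhibitors of cathepsins, a family of near-identical copies whose signals may not be separable. It read 7.48, 8.26 and 8.28 against 6.20, 6.46 and 5.24 (2.04 higher, adjusted p = 0.00541). Cpne8, a calcium-dependent membrane-binding protein, was even within each group, at 8.84, 8.77 and 8.80 against 7.19, 7.30 and 7.16 (3.01-fold, SE 0.15 log2, adjusted p = 9.37e-05). So was the adenylate cyclase Adcy4, at 8.94, 8.83 and 8.99 against 7.39, 7.29 and 7.47 (2.90-fold, SE 0.10 log2, adjusted p = 4.75e-06). Chosen after their values were seen, the early activation marker Cd69 (difference 1.4), the tryptophanyl-tRNA synthetase Wars (1.07), the transglutaminase Tgm2 (1.21) and the metallothionein Mt2 (1.19) were also called higher.

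Fewer genes were lower, and by less. The 15 with the largest difference included Trrap, a scaffold of histone acetyltransferase complexes, at 7.65, 7.59 and 7.71 on the GFK and 8.75, 8.52 and 8.49 on the GFW arrays. It was 1.91-fold lower (difference -0.94, SE 0.10, adjusted p = 0.000254), and the 1 gene still called lower when the spread came from the 6 arrays alone. The cell-cycle protein Prr11, at 5.40, 6.21 and 5.98 against 7.09, 7.07 and 6.66, was 2.11-fold lower (difference -1.08, adjusted p = 0.00559). The lysosomal sulfatase Arsb (-0.89, adjusted p = 0.00464) and the Mediator subunit Med31 (-0.77, 0.00827) also kept their calls with each array left out.

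The calls of the remaining 11 genes were each lost in at least 1 such fit. Klrk1, which encodes the activating receptor NKG2D, read 6.11, 6.36 and 7.25 against 7.30, 7.79 and 8.31, so that the highest GFK value nearly met the lowest GFW value (difference -1.23, adjusted p = 0.0305, up to 0.113 without GFK1, GFK2, GFW2 or GFW3). Tlr3 is given above, and the others were Esm1 (at least 1.42-fold lower, its GFK signal being near the limit of detection), Tcea2 (-0.80), Foxd4 (-0.78), Ftsj1 (-0.77), Mpv17l2 (-0.71), Jrkl (-0.69), Gins3 (-0.68), Exosc5 (-0.68) and Plekho1 (-0.66). Their highest adjusted p with an array left out ran from 0.0639 for Esm1 to 0.161 for Tcea2. Of the 15 genes, 11 lost the call without GFW3, 8 without GFK2, 8 without GFW2, 7 without GFK1, and 3 without GFK3 or without GFW1.

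Some markers of other cell types were called as well. Of 20 genes of splenic macrophages 7 were called higher and 0 lower (median 0.48), and the mean signal of its 21 genes with a probe set was 7.93, 7.87 and 8.14 on the GFK and 7.42, 7.44 and 7.54 on the GFW arrays. Cd5l, a protein secreted by tissue macrophages, read 8.01, 7.51 and 8.42 against 6.37, 6.03 and 6.55 (3.17-fold, SE 0.19 log2, adjusted p = 0.000592). The scavenger receptor Marco read 6.91, 7.54 and 7.75 against 5.99, 6.10 and 5.74 (2.74-fold, SE 0.22 log2, adjusted p = 0.00443). The groups did not overlap for either gene. Maf (0.96), Fcna (0.84), C1qb (0.84), Vcam1 (0.77) and Axl (0.69) were called too, although the second probe set of Maf differed by 0.07. The count was 3 without GFK1, 4 without GFK3, GFW1 or GFW2, 5 without GFW3 and 7 without GFK2. With the spread taken from the 6 arrays alone it was 2. Cd68 (-0.06), Adgre1 (-0.12), which encodes F4/80, and the iron exporter Slc40a1 (-0.16) were not called.

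Antibody-secreting cell genes were called in part. Of 13 plasma cell genes 6 were called higher and 0 lower (median 0.60), and the mean signal of its 14 genes with a probe set was 6.99, 6.86 and 7.0 on the GFK and 6.33, 6.26 and 6.41 on the GFW arrays. The joining chain Jchain read 9.52, 9.51 and 9.68 against 8.23, 8.07 and 9.06 (1.12 higher, adjusted p = 0.0312), and the chaperone Mzb1 was 1.07 higher (0.0107), the coactivator Pou2af1 1.24 (0.0171), Derl3 of the secretory pathway 0.94 (0.00346) and the surface marker Sdc1 0.75 (0.0399). Ighg3 was at least 4.16-fold higher by its brighter probe set (adjusted p = 0.00554), while its second lay below the limit of detection in both groups. The list's regulators Xbp1 (0.03) and Prdm1 (0.15) were not called. The count was 3 without GFK2 or GFW1, 4 without GFK1, GFK3 or GFW3, and 5 without GFW2. With the spread taken from the 6 arrays alone it was 2.

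Of 13 B cell genes 2 were called higher. Ighm, the heavy chain of IgM, read 13.02, 13.02 and 13.03 against 11.89, 11.66 and 11.61 (2.47-fold, SE 0.10 log2, adjusted p = 1.53e-05), and the 5 brightest of its 7 probe sets differed by 1.30 to 2.69. The other two lay near the limit of detection on the GFW arrays. Cd79a, a chain of the B cell receptor, read 7.67, 7.32 and 7.88 against 5.54, 6.42 and 6.17 (2.99-fold, adjusted p = 0.00218). The mature B cell markers Ms4a1 (0.20) and Pax5 (0.02) overlapped between the groups. Over all antibody chain genes and segments with a tested probe set, 16 of 17 had a positive difference, 7 were called higher and 0 lower, and the median was 1.30.

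**Figure D4:**
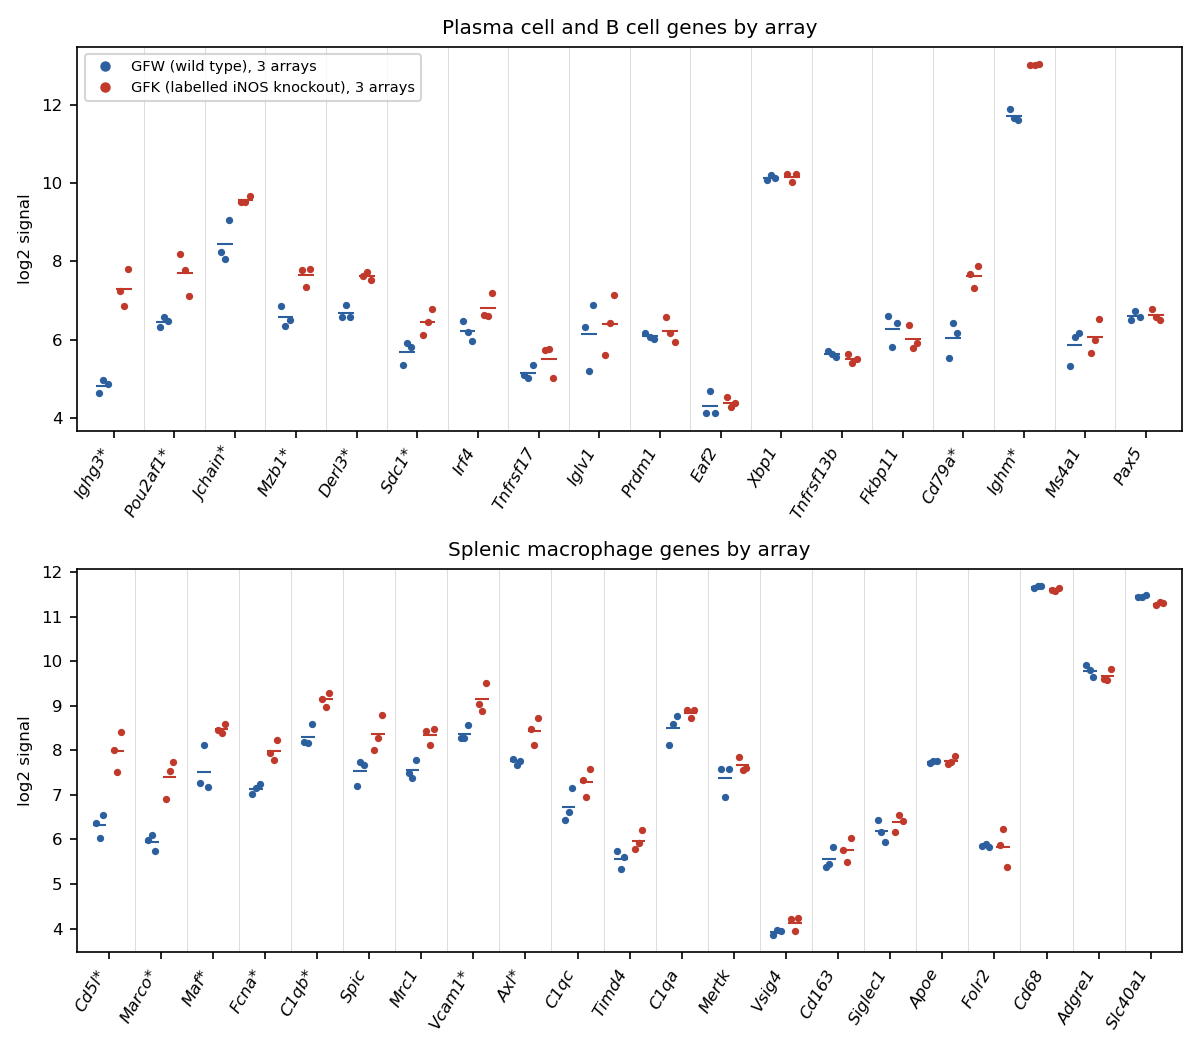
Log2 signal of plasma cell and B cell genes (upper panel) and of splenic macrophage genes (lower panel), 1 point per array, bars at group means, GFW in blue and GFK in red; an asterisk marks a call. Ighm stands at 13.02 to 13.03 on the GFK arrays against 11.61 to 11.89, and Pax5 and Cd68 lie level.

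In these bulk samples more cells of a type and more RNA per cell cannot be told apart. Genes of T and NK cells had 0 calls among 13 tested (1 at an unadjusted p under 0.05) and a median of -0.07. Their mean over 17 probe sets was 5.62 to 5.72 on the GFK and 5.7 to 5.72 on the GFW arrays. These signals were low, and 5 of the 17 genes lay near the limit of detection in both groups. Klrk1, given above as called lower, was not in this list. Patrolling monocyte genes had 4 of 11 called higher and 0 lower (median 0.14), with each array left out as well. Treml4 read 11.11, 11.22 and 11.22 against 10.43, 10.43 and 10.48 (0.74 higher, adjusted p = 0.0085), Ace was higher by 0.88 (0.00642), Spn by 0.71 (0.00287) and the transcription factor Nr4a1 by 0.66 (0.00559), while Cx3cr1 differed by 0.11 and overlapped.

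Smaller changes were seen in further lists. Of 16 progenitor genes 3 were called higher, the vascular and stem cell transcription factor Erg (0.80, adjusted p = 0.0158), Adgrl4 (0.77, 0.0226) and Hlf (0.50, 0.0447), and 0 lower. All 3 could be lost with 1 array left out (adjusted p up to 0.15): the count was 2 without GFK3, 0 without GFW2 and 1 without any 1 of the other arrays. Kit, the receptor of stem cell factor, differed by -0.21. Among 23 immediate early genes 4 were called higher (Egr3, Nr4a1, Dusp2 and Atf3, by 0.62 to 0.75) and 0 lower. Their count was 2 without GFW1 or GFW3 and 3 without any 1 of the other arrays. Fos, Jun and Egr1 differed by -0.03, 0.07 and 0.05.

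Of 27 genes of mitosis and replication Prr11 was the 1 called, and the median was -0.08. The list's mean signal was 7.23 on GFK3 and 6.91 and 6.95 on the other GFK arrays, against 7.14 to 7.19 on the GFW arrays, and without GFK3 it held 3 genes called lower. Eosinophil granule protein Prg2 was called higher (1.47, adjusted p = 0.0188), which was lost without GFK2 or GFW3 (up to 0.0718), and the dendritic cell list held 1 call, Ly6d (0.90, 0.0449), lost without GFK2, GFK3, GFW2 or GFW3 (up to 0.143). Lists of mast cell and basophil, erythroid, and megakaryocyte and platelet genes had 0 calls among 6, 6 and 8 members tested (1, 0 and 1 at an unadjusted p under 0.05).

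**Figure D5:**
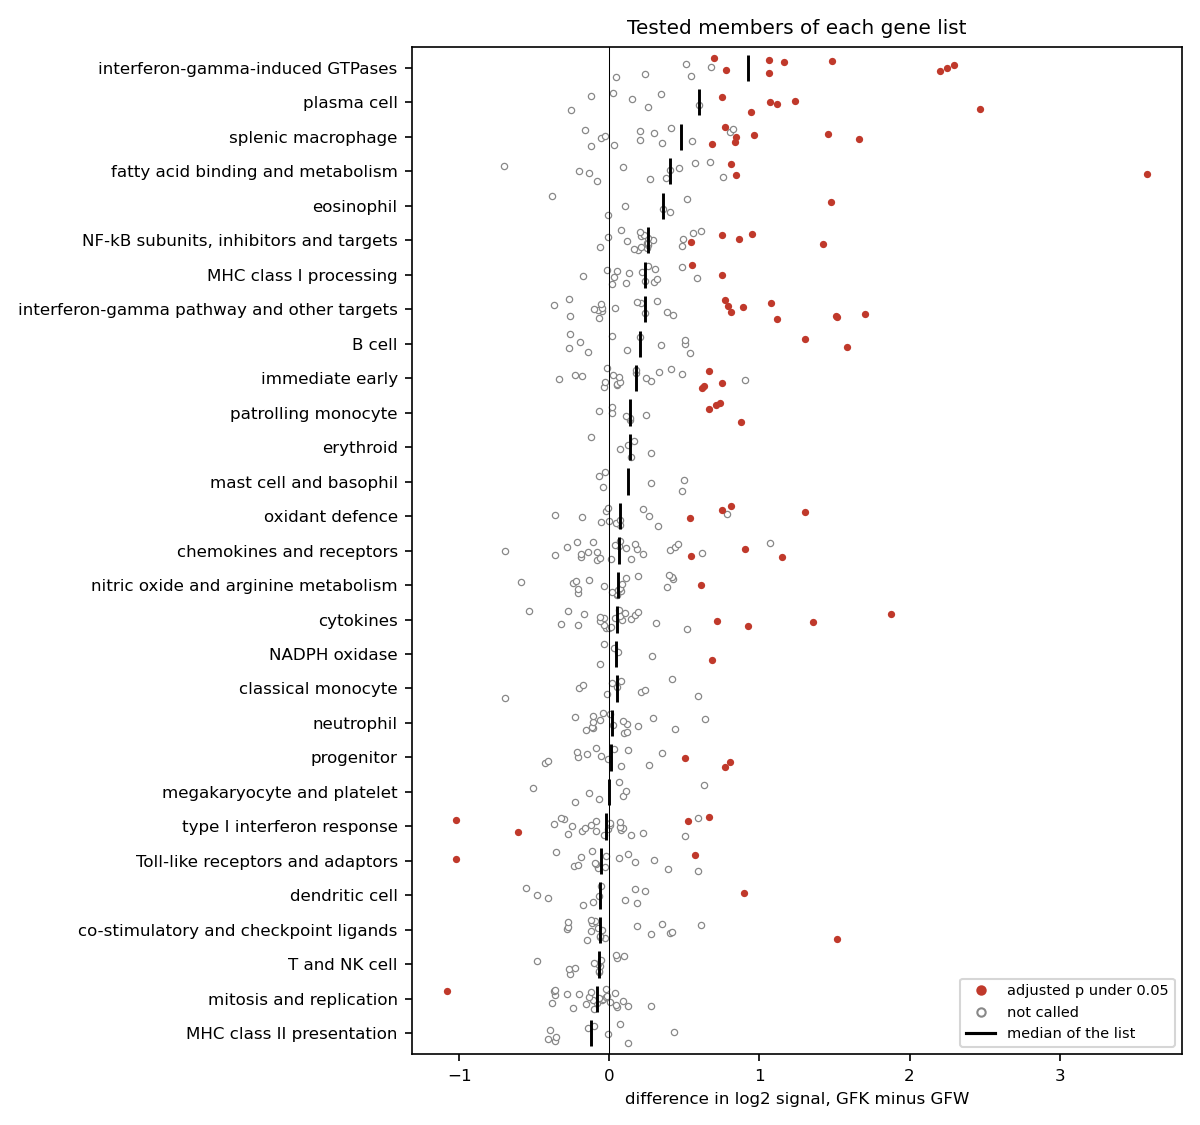
Difference in log2 signal (GFK minus GFW) of each tested gene of 29 lists, 1 point per gene, with calls in red, other genes as open circles and the list median as a black bar; the lists are ordered by median. The interferon-gamma-induced GTPases stand first with a median of 0.92 and MHC class II presentation last with -0.13.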

How the data were processed

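Total RNA of the 15 samples was hybridised to single-colour Affymetrix arrays, 1 per sample, from 6 ug of RNA, per the labels' protocols. The authors made the deposited log2 values with RMA (oligo package), per the submitters' processing notes. RMA corrects background, quantile-normalises and summarises probe sets, so that a shift common to all genes of an array is removed. The sources used here do not give the versions or the build of the annotation.

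The table held 41345 probe sets: 23521 with a single gene symbol, which were used, 1814 with more than 1 and 16010 without any. By gene identifier 23325 matched RefSeq (GRCm38.p6). Where a gene had more than 1 probe set (1082 genes), the brightest on average across the 15 arrays stood for it. Testing required a value above the array's 40th percentile, which was 5.05 to 5.25 log2, on 3 or more of 12 arrays. A group mean below that percentile counts as near the limit of detection, and the difference is then printed as a bound.

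limma 3.58.1 (R 4.3.3) was run on the 12 arrays of GFW, GFE, GFK and MDSC with lmFit and eBayes, a mean per group and no block, which left 8 residual and gave 5.37 prior degrees of freedom. Adjusted p is Benjamini-Hochberg over all 15854 genes, 2-sided. On simulated data with 200 genes changed by 1 log2 the fit recovered 87%, with 4.4% false calls. Named genes are Nos2, the 15 higher and 15 lower called genes with the largest difference and no overlap (predicted models and antibody or T cell receptor segments outside the lists skipped, 4 higher and 0 lower), list members and called neighbours of Nos2. Genes outside this rule are said to have been chosen after their values were seen. The comparison, its members and the gene lists were chosen with earlier results of these data known. The alternatives were another set of arrays for the spread, other filters, scalings, probe-set rules and thresholds, a replicate block, and leaving out each array. Same-numbered arrays did not deviate together (correlations of deviations 0.014, 0.032 and 0.011), so the numbers were not taken as pairs. Promoters were read from RefSeq's table with Python 3.11.15.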

Additional observations from a re-analysis of the deposited data

Results flagged for a closer look

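Probe sets listed with no gene symbol were not part of the comparison. Fitted together with all others, 69 of the 9174 that passed the filter were called higher on the GFK arrays and 23 lower (1% called, beside 1.15% of probe sets with 1 symbol), and the largest difference was 6.03 log2. No gene is named for them here.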

How the results depend on the processing

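Each named gene that was called kept its direction under every alternative in which it was tested, and what changed was the number of calls. Most alternatives could not have reversed a direction. Other arrays for the spread, other filters and thresholds and the block leave the difference as it is. Called genes had no overlap between the groups, so leaving out an array keeps the sign. Higher calls numbered 227 and lower calls 58. With the spread taken from the 6 arrays alone they were 70 and 1, each also among the first, and in a test against a 1.5-fold difference 15 and 0. The 6-array spread ended 52 of the 89 named calls and kept 37. Under it the immediate early list fell from 4 higher calls to 1 and the further interferon-gamma members from 9 to 7. The fatty acid list kept its 3 and the B cell list its 2. Lower calls were 31 with the 9 arrays of the same title prefix, 37 after centring each array on its median, 102 with a trended and robust spread, 93 with a filter at the 60th percentile, 88 after quantile normalisation of the 12 arrays again, and 88 with the replicate number as a block (264 higher). Leaving out each array gave 166 to 214 higher and 39 to 70 lower calls, and 125 higher and 18 lower genes kept their call in all 6 such fits. Nos2 differed by 0.613 in both settings that ended its call (adjusted p 0.0975 and 1), and by 0.518 to 0.689 with an array left out. The replicate block moved the lower calls as given and ended 3 of the 89 named calls, and every other named call held under it. The cause of these changes was not tested. The 6-array fit rests on fewer arrays and also leaves out the spread of the cultured GFE and MDSC arrays. Centring and repeated quantile normalisation moved the median difference from -0.011 to 0.006 and -0.005. Fits on fewer than 12 arrays share less information on the spread, 3 arrays a group limit the precision, and genes near the limit of detection carry bounds.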

Other observations

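Among the genes called higher were 4 that act in protein folding or export in the endoplasmic reticulum. They were chosen after their values were seen, and no list of such genes was counted. Txndc5, a disulfide isomerase, read 7.79, 7.25 and 7.83 on the GFK arrays against 6.69, 6.74 and 6.44 (difference 1.0, SE 0.16). The cargo receptor Lman1 differed by 0.94, the chaperone Hspa13 by 0.95 and Sdf2l1 by 0.61. In each of these genes all 3 GFK arrays lay above all 3 GFW arrays, as in every gene called higher. The signal of Xbp1, which drives such genes in secreting cells, differed by 0.03. Its activity was not measured, and its part was not tested.

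The variable segments of antibody genes were followed as a group. All 12 segments tested had a positive difference, with a median of 1.27, and 4 were called higher and 0 lower. Among genes outside every list, also chosen after their values were seen, the lactonase Pon3 (difference 1.46), the receptor Bmpr1a (1.43), the acyl-CoA thioesterase Acot1 (1.36), Lacc1 (1.31) and the phosphatase Dusp16 (1.30) were called higher.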
